A study of Mus musculus with 16 samples.

Results

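Toll-like receptors and their partners were followed as a group of 10 genes: the cell surface receptors Tlr2 and Tlr4 with the co-receptor Cd14, the endosomal receptors Tlr7, Tlr9 and Tlr13, the adaptor Myd88, the inhibitor Irak3, and the inflammasome genes Nlrp3 and Casp1. These genes were taken by symbol from the tables of normalized counts, in which 16612 genes were listed in at least 1 compartment, and all 10 were listed in both. RNA had been sequenced from mCherry+ leukemic cells (tumor) and from mCherry- cells (stroma) of the marrow, with 4 libraries for each of 4 groups: WT tumor, IL-6 KO tumor, WT stroma and IL-6 KO stroma. The hosts were C57BL/6J mice of 6 to 8 weeks, either WT or IL-6 KO, which had received no drug and were killed 8 days after 500000 BCR-ABL+ Arf-/- B-ALL cells were given by tail vein. The deletion of IL-6 was thus in the host alone, and the leukemic cells, which came from a single cultured line marked with mCherry, had the same genotype in every mouse. The mCherry- gate took every host cell of the marrow that lacked the marker, so stroma here means host marrow cells at large. The labels do not say whether each library came from its own mouse, and the p-values measure the spread between these libraries only.

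Toll-like receptors recognize conserved microbial structures and products of damaged cells. Among those followed here, Tlr2 and Tlr4 at the cell surface bind lipids and lipoproteins, whereas Tlr7, Tlr9 and Tlr13 of the endosome bind nucleic acids. Nearly all Toll-like receptors signal through the adaptor MyD88 and the IRAK kinases to NF-kB. IRAK3, also called IRAK-M, restrains this signal. NLRP3 is a cytosolic sensor that assembles, through the adaptor ASC, a platform on which caspase-1 is activated to process IL-1β and IL-18. In the marrow these genes are best known from monocytes, macrophages, neutrophils and dendritic cells, while B-lineage cells carry some of the receptors as well. MyD88 owes its name to its isolation as a primary response gene of myeloid differentiation, found in myeloid leukemia cells given IL-6.

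The windows upstream of the transcription start (RefSeq, GRCm38.p6) were searched for short motifs in the 7 members that the promoter table held. They are shown for Myd88, the adaptor described in both compartments, and for the endosomal receptors Tlr9 and Tlr13, the former among the most abundant members and the latter among the least abundant in tumor. Each is printed 5′ to 3′ on the strand of its gene, without bases that GENCODE annotates as exon, and capitals mark the matched motifs.
Myd88, chr9:119340042-119340268, minus strand: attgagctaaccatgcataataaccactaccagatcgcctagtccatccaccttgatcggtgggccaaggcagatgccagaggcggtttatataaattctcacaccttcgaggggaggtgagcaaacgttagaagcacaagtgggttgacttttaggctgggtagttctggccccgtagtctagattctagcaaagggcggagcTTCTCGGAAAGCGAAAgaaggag
Tlr9, chr9:106222348-106222597, plus strand: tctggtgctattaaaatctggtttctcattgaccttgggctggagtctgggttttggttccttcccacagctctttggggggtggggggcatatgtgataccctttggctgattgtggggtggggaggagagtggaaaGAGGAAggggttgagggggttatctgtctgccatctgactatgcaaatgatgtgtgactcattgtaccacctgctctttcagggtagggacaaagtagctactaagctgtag
Tlr13, chrX:106143025-106143203, plus strand: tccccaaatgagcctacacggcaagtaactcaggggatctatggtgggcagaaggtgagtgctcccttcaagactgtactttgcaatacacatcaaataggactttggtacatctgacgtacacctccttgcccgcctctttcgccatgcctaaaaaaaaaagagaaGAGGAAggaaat

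The Myd88 window held the letters TTCNNNGAA, a consensus for STAT factors, at positions -46 to -38 (counted back from the RefSeq start), overlapping the letters GAAANNGAAA of an interferon-stimulated response element at -40 to -31. Both strands were searched over 250 bases. The STAT letters were present in 7.02% of the 32851 promoters in the table and the interferon letters in 2.98%, and no other member among the 7 held either. The letters GAGGAA, a core recognized by PU.1, stood at -112 to -107 in Tlr9 and at -83 to -78 in Tlr13, were held by 4 of the 7 members, and were present in 23.3% of all promoters. The NF-kB letters GGGNNNNNCC were held by 4 of the 7 members and by 45.8% of all promoters. These 7 members had 9 promoters searched, so a count of members is not a share of promoters. These matches describe the sequence and say nothing of which factor was bound.

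The tables of tumor and stroma differed in how many genes were listed at 0. Every member had a value above 0 in all 8 tumor libraries, where 0.743% to 1.45% of genes were listed at 0. In stroma this share was 2.30% to 11.8%, and the 3 libraries above 8% (WT 1, IL-6 KO 1 and IL-6 KO 3) each listed Tlr4, Tlr7, Tlr9 and Tlr13 at 0. The normalized counts do not give the read depth of a library. In tumor their sums were 38817792 to 44552085 in WT and 47267047 to 55592959 in IL-6 KO libraries. Rn7s1, an abundant small RNA gene, took 1329140 to 1832290 in WT and 2646200 to 3219920 in IL-6 KO tumor (log2 fold change 0.92, adjusted p = 0.00190 in limma). In stroma the sums were 8805689 to 17470735 in WT and 33973016 to 44191950 in IL-6 KO libraries. There Rn7s1 took 1689500 to 8746970 in WT and 3707690 to 34923500 in IL-6 KO (log2 fold change 2.36, SE 1.39, limma adjusted p = 0.617). The part of these differences in the members' values was not tested in either compartment. B-lineage markers summed to 135178 to 153863 normalized counts in tumor and to 549 to 1581 in stroma, whereas erythroid markers summed to 51206 to 217555 in stroma. Ms4a1, a marker of mature B cells, was not listed in tumor. Il6 was not analysed here, so the genotype of the hosts was not checked from its own transcript.

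The comparison of genotypes in tumor addressed how leukemic cells differed between hosts with and without IL-6. At an adjusted p under 0.05 (limma on log2(normalized count + 1), Benjamini-Hochberg over 14493 genes), Tlr7 was lower and Myd88 was higher in IL-6 KO tumor, and the other 8 members did not pass. Over all genes tested in tumor, 10.6% were called higher and 9.16% lower in IL-6 KO, so 1 of 10 members in each direction was near the share among all genes. The median log2 fold change was 0.14 over the 10 members and -0.01 over all genes tested. On this scale the fold change of a gene with few counts is understated.

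Tlr7, a receptor for single-stranded RNA in endosomes, had normalized counts of 137, 101, 212 and 194 in WT tumor libraries 1 to 4. In IL-6 KO tumor the counts were 78.9, 67.3, 70.2 and 66.6. All IL-6 KO values lay below all WT values, as they did for 12.0% of genes tested in tumor, and the IL-6 KO libraries were closely grouped whereas WT libraries 3 and 4 stood above WT libraries 1 and 2. Tlr7 averaged 161 ± 51.0 in WT libraries and 70.8 ± 5.66 in IL-6 KO libraries (SD, n = 4 each), 2.28 times as high in WT. The log2 fold change of IL-6 KO over WT was -1.12 (standard error, SE, 0.24, 95% interval -1.65 to -0.59, limma adjusted p = 0.0117). Tlr7 lies on the minus strand of chrX:167304929-167330558 (GRCm38, GENCODE vM21).

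Myd88, which links nearly all Toll-like receptors to the IRAK kinases, had normalized counts of 1032, 908, 836 and 1139 in WT tumor. The IL-6 KO tumor libraries had 1417, 1414, 1119 and 1193. The groups overlapped, since IL-6 KO library 3 stood just below WT library 4. The means were 979 ± 134 (SD, n = 4) and 1286 ± 153 (SD, n = 4), a ratio of 1.31, and the log2 fold change was 0.40 (SE 0.12, 95% interval 0.12 to 0.67, limma adjusted p = 0.0462). This call was close to the threshold and was lost, among other settings, with quantile normalization (adjusted p = 0.0604), without a variance trend (adjusted p = 0.0777), with the trend in GC content and length removed (adjusted p = 0.0992), and with any 1 of 6 of the 8 libraries left out (adjusted p of 0.0620 to 0.122). Myd88 lies on the minus strand of chr9:119335934-119341411, where it overlaps Slc22a14 on its own strand and Acaa1a on the other, and shares 224 nucleotides of transcript with Acaa1a. The library kit kept strand, but the strand setting of the quantification is not given in the sources used here. Acaa1a had 1535 to 2325 normalized counts in WT and 1864 to 2472 in IL-6 KO tumor (log2 fold change 0.25, SE 0.14, limma adjusted p = 0.221).

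**Figure D1:**
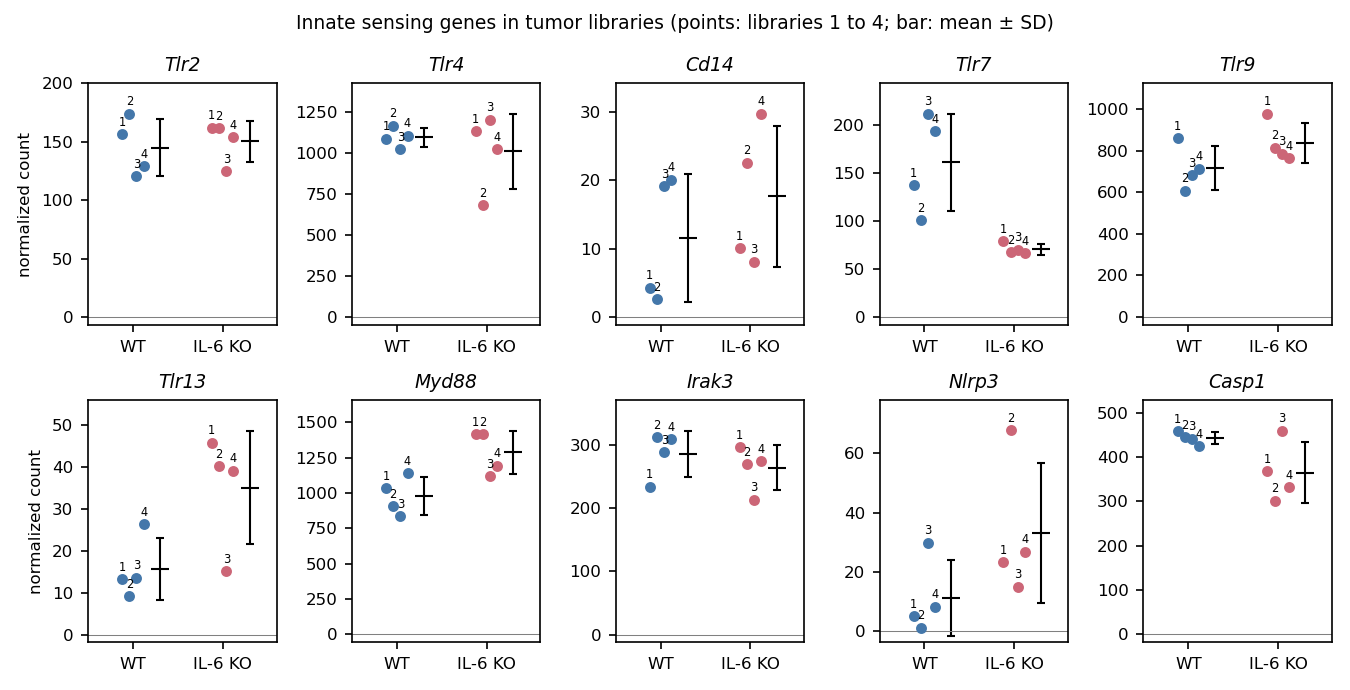
Normalized counts (vertical axes, each gene on its own scale) of the 10 members in WT and IL-6 KO tumor, with a numbered point for each of 4 libraries and a bar for the mean ± SD. Tlr7 alone shows no overlap between the genotypes, from 66.6 to 78.9 in IL-6 KO against 101 to 212 in WT.

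Among the surface receptors, Tlr2 (chr3:83836272-83841767), which senses bacterial lipoproteins, had 156, 174, 121 and 129 normalized counts in WT tumor and 162, 162, 125 and 154 in IL-6 KO tumor. Tlr4 (chr4:66827584-66930284), the receptor for lipopolysaccharide, had 1089.7, 1168, 1025 and 1107 in WT tumor and 1133, 684, 1206 and 1023 in IL-6 KO tumor. The genotypes overlapped for both genes, and IL-6 KO library 2 stood below all other libraries for Tlr4. Their log2 fold changes were 0.06 (SE 0.17, 95% interval -0.31 to 0.43, limma adjusted p = 0.825) for Tlr2 and -0.15 (SE 0.16, 95% interval -0.51 to 0.21, limma adjusted p = 0.548) for Tlr4. Without IL-6 KO library 2 the value for Tlr4 was 0.03, and it was 0.12 with the GC and length trend removed. Cd14, which hands lipopolysaccharide to Tlr4, had 4.30, 2.60, 19.1 and 20.1 normalized counts in WT tumor and 10.1, 22.6, 8.10 and 29.8 in IL-6 KO tumor. It was thus listed at a low level in both genotypes, with overlapping groups and a log2 fold change of 0.79 (SE 0.70, limma adjusted p = 0.449).

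Tlr9 (chr9:106222598-106226883), the endosomal receptor for unmethylated CpG DNA, had 860.0, 608, 682 and 713 normalized counts in WT tumor and 978, 814, 785 and 765 in IL-6 KO tumor. The groups overlapped only through WT library 1, and the log2 fold change was 0.23 (SE 0.12, 95% interval -0.05 to 0.51, limma adjusted p = 0.222). Tlr13 (chrX:106143204-106160493), a receptor of mice for bacterial ribosomal RNA, had 13.3, 9.19, 13.6 and 26.3 in WT tumor and 45.8, 40.2, 15.2 and 39.2 in IL-6 KO tumor. All IL-6 KO libraries other than library 3 stood above every WT library. The log2 fold change of 1.11 (SE 0.44) had an unadjusted p of 0.0309 and a limma adjusted p of 0.103, which became 0.0392 without IL-6 KO library 3. Of the 3 endosomal receptors, 1 was called lower in tumor and the other 2 did not pass.

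Irak3 (chr10:120141648-120202130) had 234, 313, 288 and 309 normalized counts in WT tumor and 296, 269.9, 213 and 275 in IL-6 KO tumor, with overlapping groups and a log2 fold change of -0.12 (SE 0.15, limma adjusted p = 0.600). Casp1 (chr9:5298517-5307265) had 458, 445, 441 and 425 in WT tumor and 367, 302, 459 and 331 in IL-6 KO tumor. The WT libraries of Casp1 were closely grouped and 3 of 4 IL-6 KO libraries lay below them, with a log2 fold change of -0.29 (SE 0.13, 95% interval -0.59 to 0.00, limma adjusted p = 0.147). With the GC and length trend removed the Casp1 value was 0.09, and without IL-6 KO library 3 it was -0.41 (adjusted p = 0.0415). Nlrp3 (chr11:59541568-59566956) had 4.87, 1.12, 29.8 and 8.24 in WT tumor and 23.2, 67.8, 14.99 and 26.8 in IL-6 KO tumor. WT library 3 stood within the IL-6 KO range, and the log2 fold change of 1.93 (SE 0.78) had an unadjusted p of 0.0329 and a limma adjusted p of 0.108. Without WT library 3 the adjusted p was 0.0397. Over the group, 4 of 10 members had an unadjusted p under 0.05 in tumor, beside 35.1% of all genes tested.

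Markers of mature neutrophils, and some of monocytes and macrophages, moved with genotype in the tumor libraries. All 12 mature neutrophil markers were listed, 9 of them were called higher in IL-6 KO tumor and none lower. Among all genes tested in tumor, 10.6% were called higher and 9.16% lower. The summed level of the 12 markers ran from 4707 to 5320 normalized counts in WT and from 7230 to 17763 in IL-6 KO. The lowest of these IL-6 KO sums was that of library 3. In that library 6 members (Tlr2, Cd14, Tlr13, Myd88, Irak3 and Nlrp3) had their lowest IL-6 KO value. The share of all genes with their lowest IL-6 KO value there was not counted. Of the 12 monocyte and macrophage markers 4 were called higher (Ly6c2, Ccr2, F13a1 and Cx3cr1) and none lower. The log2 fold changes of 8 were above 0, and those of Adgre1, C1qa, C1qb and Vcam1 were below 0. The list had sums of 2019 to 2416 in WT and 2566 to 3596 in IL-6 KO. Mrc1 alone gave 1227 to 1712 of each sum, and without it the sums were 643 to 1018 in WT and 853 to 2102 in IL-6 KO and overlapped through IL-6 KO library 3. Of the 8 markers of plasmacytoid dendritic cells, in which Tlr7 is known to be abundant, 5 were listed and none passed. Their sums of 7555 to 8392 in WT and 6493 to 7608 in IL-6 KO were mostly Tcf4 and Spib, which B-lineage cells also express, so they do not measure plasmacytoid cells. The other 3 (Bst2, Cox6a2 and Pacsin1) summed to 377 to 547 in WT and 516 to 650.2 in IL-6 KO, and the defining markers Siglech and Ccr9 were not listed. The part of these cells in the values of Tlr7, Myd88, Tlr13 and Nlrp3 was not tested. In bulk RNA, fewer cells of a type and less RNA per cell cannot be told apart.

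**Figure D2:**
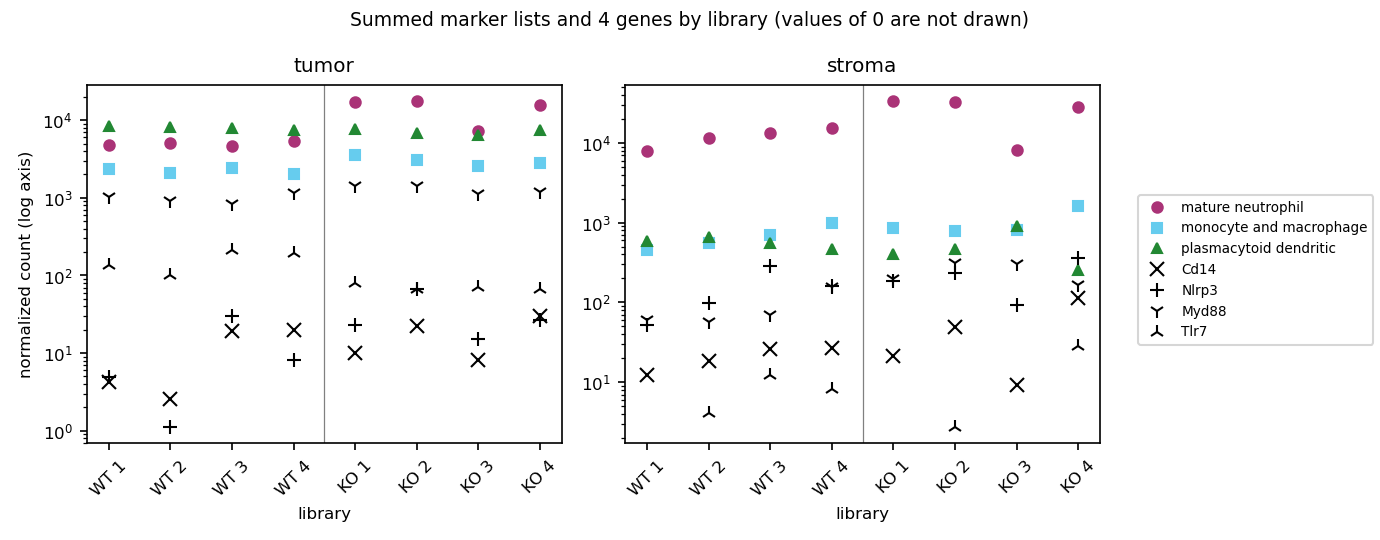
Normalized counts on a log axis, by library, of the summed neutrophil, monocyte and macrophage, and plasmacytoid dendritic markers and of Cd14, Nlrp3, Myd88 and Tlr7 in tumor (left) and stroma (right), with values of 0 left out. In tumor the neutrophil sum of IL-6 KO library 3 (7230) lies nearest to the WT sums (4707 to 5320).

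The same comparison in stroma addressed how the host marrow cells themselves differed with IL-6. Of the 10 members 6 had a mean normalized count over 10 and were tested, and none passed in limma at an adjusted p under 0.05. Of all 12202 genes tested in stroma 0.00820% were called, and 1 of the 6 members (Myd88) had an unadjusted p under 0.05, beside 9.15% of all genes. All 6 log2 fold changes were above 0, with a median of 0.85 beside -0.01 over all genes tested, but the SEs of 0.45 to 0.90 were wide and no single value other than that of Myd88 had an interval clear of 0.

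Myd88 had normalized counts of 60.3, 56.5, 69.7 and 156 in WT stroma. The IL-6 KO stroma libraries had 199, 313, 300.1 and 164. All IL-6 KO values lay above all WT values, as they did for 2.54% of genes tested in stroma, although WT library 4 nearly reached IL-6 KO library 4. Myd88 averaged 85.7 ± 47.3 in WT libraries and 244 ± 73.6 in IL-6 KO libraries (SD, n = 4 each), a ratio of 2.85. The log2 fold change of 1.58 (SE 0.45, 95% interval 0.60 to 2.56) had an unadjusted p of 0.00409 and a limma adjusted p of 0.370, and the adjusted p stayed between 0.154 and 0.794 under the alternatives. Acaa1a, its partner on the other strand, had 79.9 to 399 normalized counts in WT and 117 to 401 in IL-6 KO stroma (log2 fold change 0.48, SE 0.54, limma adjusted p = 0.814). The difference between the Myd88 fold changes of the compartments was not tested, because the tables were normalized separately.

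Tlr2 had 9.26, 21.0, 24.7 and 17.3 normalized counts in WT stroma against 32.4, 49.1, 16.9 and 69.7 in IL-6 KO stroma. Cd14 had 12.1, 18.2, 26.0 and 26.5 in WT stroma against 21.4, 48.5, 9.11 and 112 in IL-6 KO stroma. Both genes overlapped between genotypes, with IL-6 KO library 4 highest and library 3 lowest among the IL-6 KO libraries. The log2 fold changes were 1.08 (SE 0.70, limma adjusted p = 0.658) for Tlr2 and 0.69 (SE 0.81, limma adjusted p = 0.826) for Cd14. The Cd14 value was 0.10 without IL-6 KO library 4, 1.27 without IL-6 KO library 3 and 1.63 without the 3 libraries with over 8% of genes at 0, and none of these passed (adjusted p of 0.484 to 0.974). Irak3 had 60.3, 134, 121 and 104 in WT stroma against 129, 131, 49.3 and 224 in IL-6 KO stroma, with overlapping groups and a log2 fold change of 0.22 (SE 0.52, limma adjusted p = 0.923). This value was -0.09 without IL-6 KO library 4 and -0.02 without WT library 1.

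For the inflammasome, Nlrp3 had 52.8, 98.7, 285 and 159 normalized counts in WT stroma against 188, 231, 93.0 and 359 in IL-6 KO stroma. For Casp1 the WT stroma libraries had 16.8, 35.3, 14.6 and 14.6, and the IL-6 KO libraries 21.1, 114, 7.38 and 123. The genotypes overlapped for both, and the IL-6 KO values of Casp1 fell into a high pair (libraries 2 and 4) and a low pair (libraries 1 and 3), of which the low pair were libraries with over 8% of genes listed at 0. The log2 fold changes were 0.65 (SE 0.57, limma adjusted p = 0.748) for Nlrp3 and 1.02 (SE 0.90, limma adjusted p = 0.753) for Casp1. With 1 library left out, Nlrp3 ranged from 0.24 (without WT library 1; 0.36 without IL-6 KO library 4) to 1.05 (without WT library 3; 1.00 without IL-6 KO library 3). Casp1 ranged from 0.48 (without IL-6 KO library 4; 0.51 without IL-6 KO library 2) to 1.77 (without IL-6 KO library 3), and was 2.53 without the 3 libraries with over 8% of genes at 0 (adjusted p = 0.365).

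The remaining receptors were listed at low values or at 0 in stroma. Tlr4 had 0, 4.14, 2.53 and 29.6 normalized counts in WT stroma against 0, 7.02, 0 and 29.5 in IL-6 KO stroma. Tlr7 had 0, 4.14, 12.3 and 8.17 in WT stroma against 0, 2.73, 0 and 28.1 in IL-6 KO stroma. Both were carried mainly by library 4 of the IL-6 KO group, and Tlr4 by library 4 of the WT group as well. Tlr9 had 0, 19.1, 20.6 and 12.4 in WT stroma against 0, 10.6, 0 and 7.59 in IL-6 KO stroma. Tlr13 had 0, 17.2, 11.0 and 19.4 in WT stroma against 0, 2.76, 0 and 23.4 in IL-6 KO stroma. Their means over the 8 libraries fell below 10, so no test was made, and the genotypes overlapped for each. Without the 3 libraries with over 8% of genes at 0, an alternative chosen after the values were seen, all 10 members could be tested and none was called. Of the 10, 3 had an unadjusted p under 0.05, beside 1204 of the 12051 genes tested under that setting.

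**Figure D3:**
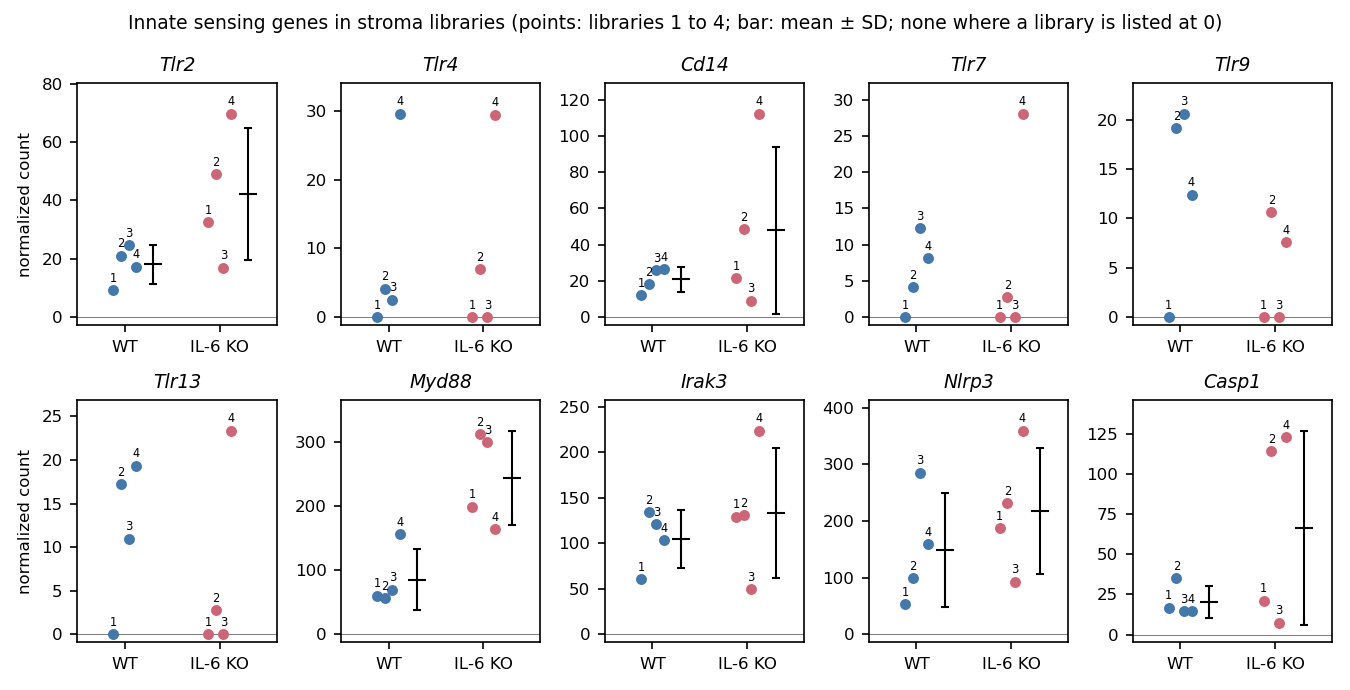
Normalized counts (vertical axes, each gene on its own scale) of the 10 members in WT and IL-6 KO stroma, with a numbered point for each of 4 libraries and a bar for the mean ± SD where no library is listed at 0. Myd88 shows no overlap between the genotypes (56.5 to 156 in WT, 164 to 313 in IL-6 KO), while Tlr4, Tlr7, Tlr9 and Tlr13 are listed at 0 in 3 libraries each.

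None of the 12 mature neutrophil markers was called in stroma by limma, and 4 had an unadjusted p under 0.05, beside 9.15% of all genes tested. The 12 markers summed to 7865 to 15206 normalized counts in WT and to 8196 to 33821 in IL-6 KO, with the lowest IL-6 KO sum again in library 3. Library 3 was also the IL-6 KO library with the lowest Tlr2, Cd14, Irak3, Nlrp3 and Casp1, but not the lowest Myd88. Its erythroid markers summed to 217555, the most of any stroma library, and those of IL-6 KO library 4 to 51206, the least. Monocyte and macrophage markers summed to 452 to 980 in WT (979.6 in library 4) and to 787 to 1639 in IL-6 KO, highest in library 4, the library in which 8 members, all but Tlr9 and Myd88, had their highest IL-6 KO value. Of the 8 plasmacytoid dendritic markers 5 were tested in stroma and none was called (1 higher and 4 lower in IL-6 KO). Their sums, which include Tcf4 and Spib, were 474 to 653 in WT and 252 to 911 in IL-6 KO. Siglech among them had 53.4 to 82.1 in WT and 3.48 to 42.0 in IL-6 KO (log2 fold change -1.99, limma adjusted p = 0.461). The part of these differences in cell makeup in the values of the members was not tested. The share of all genes with their lowest IL-6 KO value in library 3, or their highest in library 4, was not counted.

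**Figure D4:**
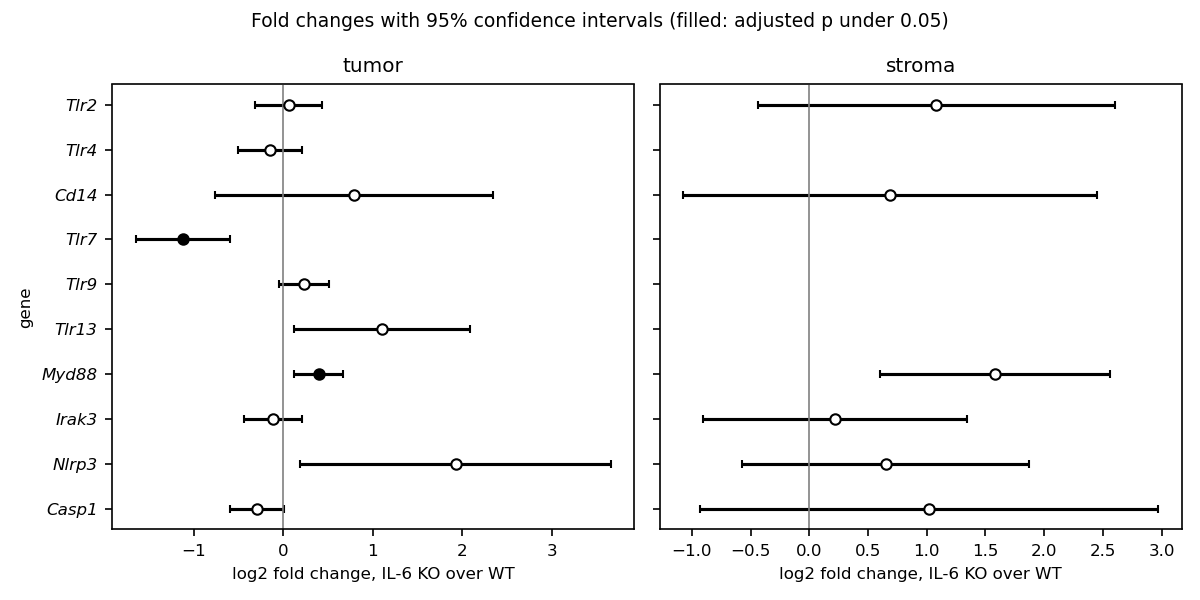
Log2 fold changes of IL-6 KO over WT on the log2(normalized count + 1) scale with 95% intervals in tumor (10 members) and stroma (6 members tested), with filled points for an adjusted p under 0.05. The filled points are Tlr7 (-1.12) and Myd88 (0.40) in tumor, and all stroma points lie to the right of 0 with intervals that, except for Myd88, span it. Tlr4, Tlr7, Tlr9 and Tlr13 were not tested in stroma and have no point there.

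Levels were compared between members as normalized counts per kilobase of the longest transcript. In WT tumor Myd88 was the most abundant, at 398 ± 54.6 per kilobase (SD, n = 4), above Casp1 at 295 ± 9.23 in every library. Casp1 and Tlr4 (269 ± 14.5) overlapped, followed without overlap by Tlr9 at 206 ± 30.4 and Irak3 at 92.4 ± 11.7, then by Tlr2 at 48.1 ± 8.20, which overlapped Tlr7 at 41.3 ± 13.1. Of the members, the adaptor was thus the highest in leukemic cells, and Tlr4 and Tlr9 were the most abundant receptors. Per kilobase of merged exons, Tlr4 (198) stood below Tlr9 (206) in WT tumor. Cd14 (7.03 per kilobase), Tlr13 (3.85) and Nlrp3 (2.74) were the lowest in WT tumor and overlapped one another.

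In IL-6 KO tumor Myd88 again led, at 523 ± 62.2 per kilobase (SD, n = 4), above Tlr4 (248 ± 56.6), Casp1 (244 ± 45.6) and Tlr9 (240.2 ± 27.9), which overlapped, and Tlr4 (182) was below both others per kilobase of merged exons. Tlr7, at 18.2 ± 1.45 per kilobase, lay below every Tlr2 value (49.96 ± 5.82) and overlapped Cd14 at 10.7. In stroma no neighbours in the order could be separated. The highest mean levels were those of Nlrp3 (37.0 per kilobase), Myd88 (34.8) and Irak3 (33.8) in WT stroma, and of Myd88 (99.4), Nlrp3 (54.2), Casp1 (44.3) and Irak3 (43.0) in IL-6 KO stroma. No Toll-like receptor exceeded a mean of 13.9 per kilobase in any stroma group, which was that of Tlr2 in IL-6 KO.

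To set tumor beside stroma without comparing levels between separately normalized tables, the members were ranked within each library among the 11812 genes listed in both. Of 10 members 5 had percentile ranges that did not overlap between compartments. Tlr4 stood at percentiles 42.8 to 56.0 in tumor and 3.33 to 27.6 in stroma, and Tlr9 at 40.7 to 50.9 and 3.33 to 20.2. For both, 3.33 was the shared rank of genes listed at 0 in WT stroma library 1. Both receptors ranked higher in the leukemic cells, while the reverse held for 3 members. Nlrp3 stood at percentiles 0.728 to 16.3 in tumor and 38.9 to 81.4 in stroma, Irak3 at 26.0 to 29.4 and 38.6 to 71.7, and Cd14 at 1.08 to 11.9 and 14.0 to 55.6. Tlr2, Tlr7, Tlr13, Myd88 and Casp1 overlapped between compartments. These are descriptions without a test.

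**Figure D5:**
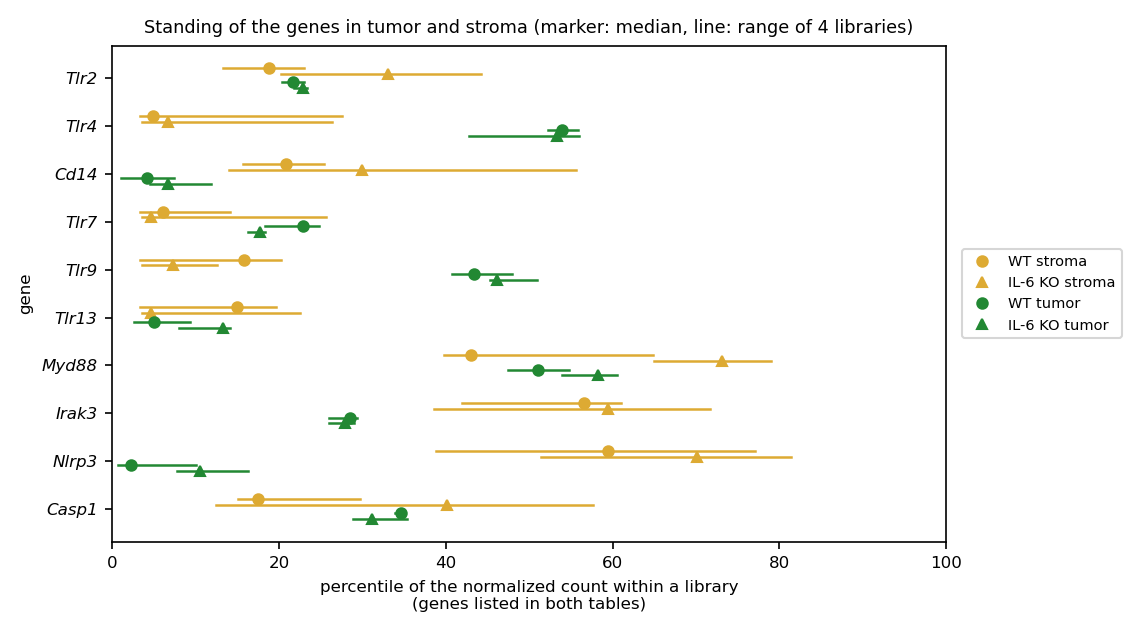
Percentile of each member's normalized count within a library among the 11812 genes listed in both tables (horizontal axis), as the median (marker) and range (line) of 4 libraries for each group. Tlr4 and Tlr9 rank higher in tumor, Cd14, Irak3 and Nlrp3 rank higher in stroma, and the other 5 members overlap.

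A wider list of 63 genes of innate sensing was read by role. In tumor 57 were tested, of which 3 were called higher and 5 lower in IL-6 KO, or 8 of 57 beside the 19.8% of all genes called, with a median log2 fold change of 0.00. Co-receptors and receptor chaperones held 3 of these calls among 8 tested. Ly96, which encodes MD-2, the lipopolysaccharide-binding partner of Tlr4, had 45.9, 78.9, 56.4 and 59.2 normalized counts in WT tumor and 17.5, 22.4, 29.3 and 27.9 in IL-6 KO tumor. No Ly96 values overlapped, with IL-6 KO below WT as for 12.0% of genes tested in tumor, and the log2 fold change was -1.27 (limma adjusted p = 0.0119), beside the Tlr4 values above that did not pass. With the GC and length trend removed the Ly96 value fell to -0.38 and the call was lost (adjusted p = 0.329). Cd180, a receptor of B cells related to Tlr4, was lower (log2 fold change -0.39, limma adjusted p = 0.0321), a call that held under 11 of 19 alternatives and was lost, among others, without a variance trend (adjusted p = 0.0594), with the GC and length trend removed (-0.28, adjusted p = 0.0843), and without WT library 1, 2 or 3 or IL-6 KO library 4 (adjusted p of 0.0507 to 0.0801). Cnpy3, a chaperone that Toll-like receptors need for folding, went from a mean of 1559 to 2259 normalized counts, a log2 fold change of 0.54 (adjusted p = 0.00371 in limma). Cd36, a scavenger receptor that assists Tlr2, had 629, 598, 398 and 504 normalized counts in WT tumor and 338, 308, 444 and 380 in IL-6 KO tumor, with overlapping groups, and did not pass (log2 fold change -0.53, adjusted p = 0.0530 in limma). Unc93b1, which carries Tlr7, Tlr9 and Tlr13 to endosomes, did not pass, with 3372 to 3504 normalized counts in WT and 3689 to 4821 in IL-6 KO tumor and a log2 fold change of 0.26 (adjusted p = 0.0628 in limma). Lbp, in the same role, did not pass either. It had 3.88 to 20.5 normalized counts in WT and 20.7 to 45.95 in IL-6 KO tumor (log2 fold change 1.53, SE 0.51, limma adjusted p = 0.0622).

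Among the 12 inflammasome genes tested in tumor, the single call was Pycard, beside 19.8% of all genes called. Pycard encodes the ASC adaptor between Nlrp3 and Casp1. It had 2.00, 2.27, 2.91 and 2.27 normalized counts in WT tumor and 51.8, 65.9, 35.9 and 45.1 in IL-6 KO tumor. The gap between the groups was wide, with a log2 fold change of 3.89 (SE 0.37, limma adjusted p = 0.000524). The lowest IL-6 KO value was that of library 3, as for the neutrophil markers, but the part of neutrophils in the Pycard values was not tested. In stroma Pycard had 9.35 to 81.2 normalized counts in WT and 12.3 to 77.2 in IL-6 KO (log2 fold change -0.37, limma adjusted p = 0.917). Pycard shares 485 nucleotides of transcript with Gm45205 on the other strand, which had 21.0 to 40.0 normalized counts in WT and 20.3 to 24.0 in IL-6 KO tumor (log2 fold change -0.43, limma adjusted p = 0.308). Of the other members of that list, Aim2, a sensor of cytosolic DNA, had a log2 fold change of -0.41 (adjusted p = 0.0818 in limma) and Gsdmd, the pore protein cut by caspase-1, 0.33 (limma adjusted p = 0.164).

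The cytosolic nucleic acid sensors gave 2 calls among 7 tested in tumor, both lower. Over all genes tested in tumor, 19.8% were called in either direction and 9.16% lower. Ddx58, encoding RIG-I, was lower with means of 1006 and 551 normalized counts (log2 fold change -0.87, limma adjusted p = 0.00554), and Ifih1, encoding MDA5, was lower with means of 399 and 261 (log2 fold change -0.59, limma adjusted p = 0.0227). The Ifih1 call held under 13 of 19 alternatives; it was lost with the GC and length trend removed (-0.38, adjusted p = 0.119) and without WT library 1 or 3 or IL-6 KO library 1 or 4 (adjusted p of 0.0509 to 0.0656). Dhx58, encoding the related LGP2, had a log2 fold change of -0.61 and did not pass (limma adjusted p = 0.107). Of the 14 adaptors and kinases, Tab2, which helps activate the kinase TAK1 downstream of Myd88, was lower (log2 fold change -0.37, limma adjusted p = 0.0296). That call held under 13 of 19 alternatives and was lost, among others, without a variance trend (adjusted p = 0.0617), with the GC and length trend removed (-0.31, adjusted p = 0.0574), and without WT library 3 or IL-6 KO library 1 or 4 (adjusted p of 0.0590 to 0.0826). Irak1, the kinase recruited by Myd88, had a log2 fold change of 0.22 (adjusted p = 0.0865 in limma). Card9, an adaptor of phagocyte lectins, was higher with means of 26.4 and 70.6 normalized counts (log2 fold change 1.46, limma adjusted p = 0.0141). The part of myeloid cells in the Card9 values was not tested. None of the 8 inhibitors or the 3 other Toll-like receptors tested passed.

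In stroma 53 of the 63 genes were tested and none was called by limma, beside 0.00820% of all genes called. An unadjusted p under 0.05 was found for 3 of the 53, beside 9.15% of all genes tested. The median log2 fold change of the 53 was -0.24, which was 0.14 without IL-6 KO library 3 and 0.35 without the 3 libraries with many genes at 0. Irak2, a kinase that acts with Myd88, had 115, 85.3, 192 and 143 normalized counts in WT stroma against 384, 338, 358 and 346 in IL-6 KO stroma. As for Myd88 and 2.54% of all genes tested, every IL-6 KO library lay above every WT library. The Irak2 log2 fold change was 1.47 (SE 0.36, limma adjusted p = 0.324). The other 2 were Mavs, the adaptor of the cytosolic RNA sensors, at -1.75 (limma adjusted p = 0.445), and Tab1, a partner of TAK1, at -1.81 (limma adjusted p = 0.518).

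Finally, genes with profiles most like the members were listed by their Pearson correlation, over the 8 libraries of a table, with the mean standardized log2 value of the members tested there. In tumor (10 members) these were Tac4 (0.929), Bcl2 (0.921), Pced1b (0.910), Oxa1l (0.903) and Mkrn2 (0.902), of 11231 genes with a mean over 50. In stroma (6 members) they were E4f1 (0.990), Mvp (0.980), Crlf2 (0.980), Alas1 (0.978) and Itpr2 (0.976), of 8074 genes. The points share library makeup and normalization, and whether values this high arise for other profiles was not tested.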

How the data were processed

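RNA of mCherry+ and mCherry- marrow cells, sorted as live single cells after red cell lysis, was extracted and made into libraries with a directional kit that depletes ribosomal RNA. Per the submitters' processing notes, the authors used Salmon 1.3.0, DESeq2 1.28.1 and the genome build mm10. The normalized counts that the authors deposited are a signal scaled between libraries, without whole reads, so no count test was run and the depth of a library is unknown. The 2 tables, 1 for tumor and 1 for stroma, were normalized separately by the authors, and each was tested on its own. The authors' own tables of comparisons (fold changes and p-values) were not used. Groups and replicate numbers came from the sample titles.

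The genes tested in a table were those whose normalized counts averaged over 10. They were tested with limma 3.58.1 (R 4.3.3) on log2(normalized count + 1), with a variance trend and genotype as the only term, two-sided, with Benjamini-Hochberg adjustment over all genes tested and a threshold of 0.05. The test was first tried on simulated data. The members and lists were chosen with earlier results of these data known. All members were named, and of the list of 63 genes those with an adjusted p under 0.05 and up to 4 of each role by smallest p. Unc93b1, Lbp, Acaa1a, Gm45205, Rn7s1 and the marker genes named singly or left out of a sum were chosen after their values were seen. Per-kilobase levels used the longest transcript of GENCODE vM21. Shared sequence was found with BLAST 2.17.0 (at least 97% identity over 150 nucleotides). Promoters came from RefSeq on GRCm38.p6. Python 3.11.15, pandas 2.3.3 and matplotlib 3.10.9 made the summaries and figures.

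Alternatives were pseudocounts of 0.5 and 5, no filter or a mean over 50, quantile normalization, centring on library medians, array weights, no variance trend, the replicate number as a block, removal of the trend with GC content and length (loess, span 0.3) with and without that block, each library left out, and, chosen after the values were seen, stroma without the 3 libraries with over 8% of genes at 0.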

Additional observations from a re-analysis of the deposited data

Results flagged for a closer look

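Of 56 groups of 4 libraries screened, 7 had a highest or lowest library whose gap to the nearest other, divided by the range of the group, passed Dixon's critical value at the 95% level. Chance flags about 1 in 20 such groups. In WT stroma, Tlr4 had 29.6 normalized counts in library 4 and at most 4.14 in the others (ratio 0.860), Myd88 had 156 in library 4 and at most 69.7 in the others (ratio 0.868), and Casp1 had 35.3 in library 2 and at most 16.8 in the others (ratio 0.895). In IL-6 KO stroma, library 4 stood apart for Tlr7 (28.1, next 2.73, ratio 0.903) and for Tlr13 (23.4, next 2.76, ratio 0.882). In WT tumor, Cnpy3 had 1783 normalized counts in library 4 and at most 1497 in the others (ratio 0.914), and Tab2 had 4568 in library 2 and at most 3632 in the others (ratio 0.836).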

How the results depend on the processing

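Tlr7 in tumor stayed called under 18 of 19 alternatives (adjusted p of 0.00250 to 0.0591, the highest with the GC and length trend removed together with the replicate block, log2 fold change -0.88), and Myd88 in tumor under 8 of 19. Of the 2 members called in tumor, 1 was left without a variance trend, 1 with the replicate block, 1 with the GC and length trend removed and 0 with that and the block, and 1 to 4 with a library left out (4 without IL-6 KO library 3). The 8 calls of the wider list in tumor became 5 with the GC and length trend removed, 4 with that and the block, and 5 to 11 with a library left out (5 without IL-6 KO library 4, 11 without IL-6 KO library 2 or 3). The 2870 genes called in tumor became 1668 with the GC and length trend and the block, and 1569 (without IL-6 KO library 4) to 3327 (without IL-6 KO library 2) with a library left out. Removing that trend gave 1491 higher and 658 lower, in place of 1542 and 1328. In stroma the 1 gene called became 4 with array weights, 6 without a variance trend, 6 without the 3 sparse libraries and 1 to 3 with a library left out, and no member was called under any alternative. Casp1 and Tlr4 in tumor turned from negative to 0.088 and 0.12 with the GC and length trend removed, with and without the block. With a library left out, Irak3 in stroma ranged from -0.090 (without IL-6 KO library 4; -0.023 without WT library 1) to 0.63, Tlr2 in tumor from -0.021 (without WT library 3) to 0.15, and Tlr4 in tumor from -0.24 to 0.029 (without IL-6 KO library 2). Among genes with a mean over 10 in both tables, 3 of 6 members separated tumor from stroma by percentile, in place of 5 of 10. Tlr4 and Tlr9, which ranked higher in tumor, were not among these 6. The cause of these changes was not tested. Replicate numbers did not pair the samples: deviations of libraries with the same number had correlations of -0.03 to 0.13 in stroma and -0.02 to 0.00 in tumor. The replicate block moved the tumor calls to 2230 genes and cost the call of Myd88 (adjusted p = 0.0555). With 4 libraries a group and no depth, differences smaller than the intervals given cannot be seen in stroma.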
